A study of Drosophila melanogaster with 2 samples.

Results

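The insulin pathway genes examined here were the 9 genes Ilp6, Ilp8, InR, chico, Pi3K92E, Pi3K21B, Pdk1, Akt and foxo, of 13945 protein-coding genes on the chromosome arms of Drosophila melanogaster. They were listed by name as members of the pathway, and the rule used no measured value. For each gene, every ChIP-seq peak was taken whose summit, the base of highest enrichment, lay in the gene body or within 5 kb of it. That span is called the locus of the gene. The protein followed was woc (without children), a zinc finger protein of chromatin. It was tagged at its C-terminus with GFP in 1 transgenic fly line (woc-GFP), and chromatin of whole larvae was sheared by sonication and precipitated through an anti-GFP antibody. The animals were wandering larvae of the third instar, males and females pooled, of unknown age. Biological replicates 1 and 3 are the 2 libraries, each of its own biosample. With 1 group there is no contrast between conditions, and no test was made. The sources used here do not give the promoter driving the fusion, nor whether untagged woc was also present. In whole larvae, a peak cannot be assigned to a tissue.

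Insulin-like peptides (Ilp) of flies bind the insulin receptor InR, a receptor tyrosine kinase. InR and its substrate chico recruit the lipid kinase PI3K, whose product brings the kinases Pdk1 and Akt to the membrane, and active Akt keeps the transcription factor foxo out of the nucleus. In larvae the pathway links feeding to growth, and it is known for setting body size.

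Woc-eGFP peaks lay in 8 of the 9 loci, and they were unevenly spread. Here, an optimal peak is one on the authors' list thresholded by the irreproducible discovery rate (IDR) between libraries. A relaxed peak is one of the authors' longer pooled list that was not on the optimal list. In the loci, a pooled peak was labelled optimal if its signal reached 99.6, the lowest of the optimal list, and relaxed if it did not. In the 9 loci every optimal signal in the pooled list was at least 115, and every relaxed one at most 99.2. Being optimal did not require a high rank in each library. In replicate 1, the optimal InR peak of 122 ranked 10630 and the Pi3K21B peak of 117 ranked 12029. Of the members' 18 optimal peaks, 10 overlapped a peak among the 6636 highest of each library. The matching share over all optimal peaks was not counted. The 9 loci held 18 optimal summits in 17 distinct peak intervals, and 91 relaxed summits. Ilp8 had no peak of either kind. Of all protein-coding genes, 48.8% had an optimal summit in the locus and 72.3% had any pooled summit there; among the members, both counts were 8 of 9. A promoter is called bound below if the gene had an optimal summit no further than 500 bp from the transcription start site (TSS) of one of its protein-coding transcripts. InR, Pi3K92E, Pi3K21B, Pdk1 and foxo were bound in this sense, which is 5 of 9 members against 21.9% of all genes. With relaxed peaks included, Akt and Ilp6 joined them, giving 7 of 9 against 38.5% of all genes.

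The shares differed with the length of the gene body. A longer body makes a longer locus. The promoter window was 500 bp from each TSS, so a gene with several TSSs, as Pdk1 with 6, had several windows. Whether length or the number of TSSs accounts for the shares was not tested. Among genes with a body under 5 kb, 43.4% had an optimal summit in the locus and 18.4% a bound promoter; between 5 and 20 kb the shares were 64.2% and 33.1%, and from 20 kb upward 67.3% and 31.2%. The members fell 3, 4 and 2 into these classes. Per 10 kb, the 9 loci held 0.833 optimal summits, or 0.764 without InR. The loci of all protein-coding genes held 0.545 per 10 kb and the arms as a whole 0.494.

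The sequence around the highest optimal peak of each of 8 members is shown because these are the places on which the description of each gene turns. Windows reached 100 bases to each side of the summit and were cut back to their longest stretch outside annotated untranslated regions (UTRs). The stretches for chico, Pi3K92E, Pi3K21B and Pdk1 are therefore shorter. Those of Pi3K92E and Pdk1 do not hold the summit base, which is at 20634129 and 141094. All are the plus strand of dm6 (RefSeq Release 6), and none of the printed stretches overlaps an annotated exon. Capitals mark matches, on either strand, to the BEAF-32 core CGATA, to the GAGA factor motif GAGAG and to the TATA box TATAAA.
Ilp6 (chrX:2329345-2329545): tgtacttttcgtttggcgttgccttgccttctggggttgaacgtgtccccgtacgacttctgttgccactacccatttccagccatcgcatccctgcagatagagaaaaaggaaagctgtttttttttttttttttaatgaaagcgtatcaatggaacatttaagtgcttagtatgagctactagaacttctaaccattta
InR (chr3R:21608629-21608829): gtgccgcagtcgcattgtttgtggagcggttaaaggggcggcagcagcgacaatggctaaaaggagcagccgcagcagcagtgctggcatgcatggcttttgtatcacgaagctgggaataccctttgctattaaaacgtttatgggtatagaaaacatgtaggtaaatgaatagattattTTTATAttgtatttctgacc
chico (chr2L:10239163-10239340): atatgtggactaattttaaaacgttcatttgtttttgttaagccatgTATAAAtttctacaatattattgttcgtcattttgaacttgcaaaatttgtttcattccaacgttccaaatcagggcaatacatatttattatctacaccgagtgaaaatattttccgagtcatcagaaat
Pi3K92E (chr3R:20634029-20634126): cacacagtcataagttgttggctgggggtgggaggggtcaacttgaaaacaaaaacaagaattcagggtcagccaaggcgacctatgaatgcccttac
Pi3K21B (chr2L:297774-297879): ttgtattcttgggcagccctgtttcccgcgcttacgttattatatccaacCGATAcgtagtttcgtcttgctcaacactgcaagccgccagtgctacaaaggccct
Pdk1 (chr3L:140994-141065): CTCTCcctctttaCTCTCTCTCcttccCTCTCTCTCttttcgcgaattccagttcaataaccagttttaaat
Akt (chr3R:16097746-16097946): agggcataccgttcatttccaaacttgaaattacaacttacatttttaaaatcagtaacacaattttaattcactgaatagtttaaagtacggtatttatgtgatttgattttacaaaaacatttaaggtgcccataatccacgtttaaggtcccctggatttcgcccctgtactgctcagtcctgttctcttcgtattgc
foxo (chr3R:14053496-14053696): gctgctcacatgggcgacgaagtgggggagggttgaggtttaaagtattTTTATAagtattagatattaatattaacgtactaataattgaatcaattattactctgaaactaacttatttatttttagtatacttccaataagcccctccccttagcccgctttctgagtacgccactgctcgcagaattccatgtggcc

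All 152 of the 50-base words in each of the 18 summit windows occurred once in the genome sequence. The median GC content of the windows was 39.5% (range 22.4% to 50.7%), against 36.3% over all 6614 optimal summits on the arms. Each motif was searched on both strands in the full windows. The BEAF-32 core CGATA was in 6 of 18 windows (33.3%, against 29.1% of all optimal summits), and the GAGA factor motif GAGAG in 5 (27.8% of member windows, and 1654 of all 6614). The TATA box TATAAA was in 8 (44.4% against 32.8%), and the nuclear receptor half-site AGGTCA in 1, in an InR intron (5.56% against 3.51%). No window held the DREF element TATCGATA (3.54% of all; CGATA lies within it), the M1BP motif GGTCACACT (1.74%), the FOXO core GTAAACA (5.31%) or the Myc E-box CACGTG (1.86%). These are matches of letters, not sites shown to be used. The Pdk1 stretch stood out by its separate runs of CTCTC. Its window held 7 GAGAG matches, some of them overlapping, all toward the edge of the window and away from the summit.

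**Figure D1:**
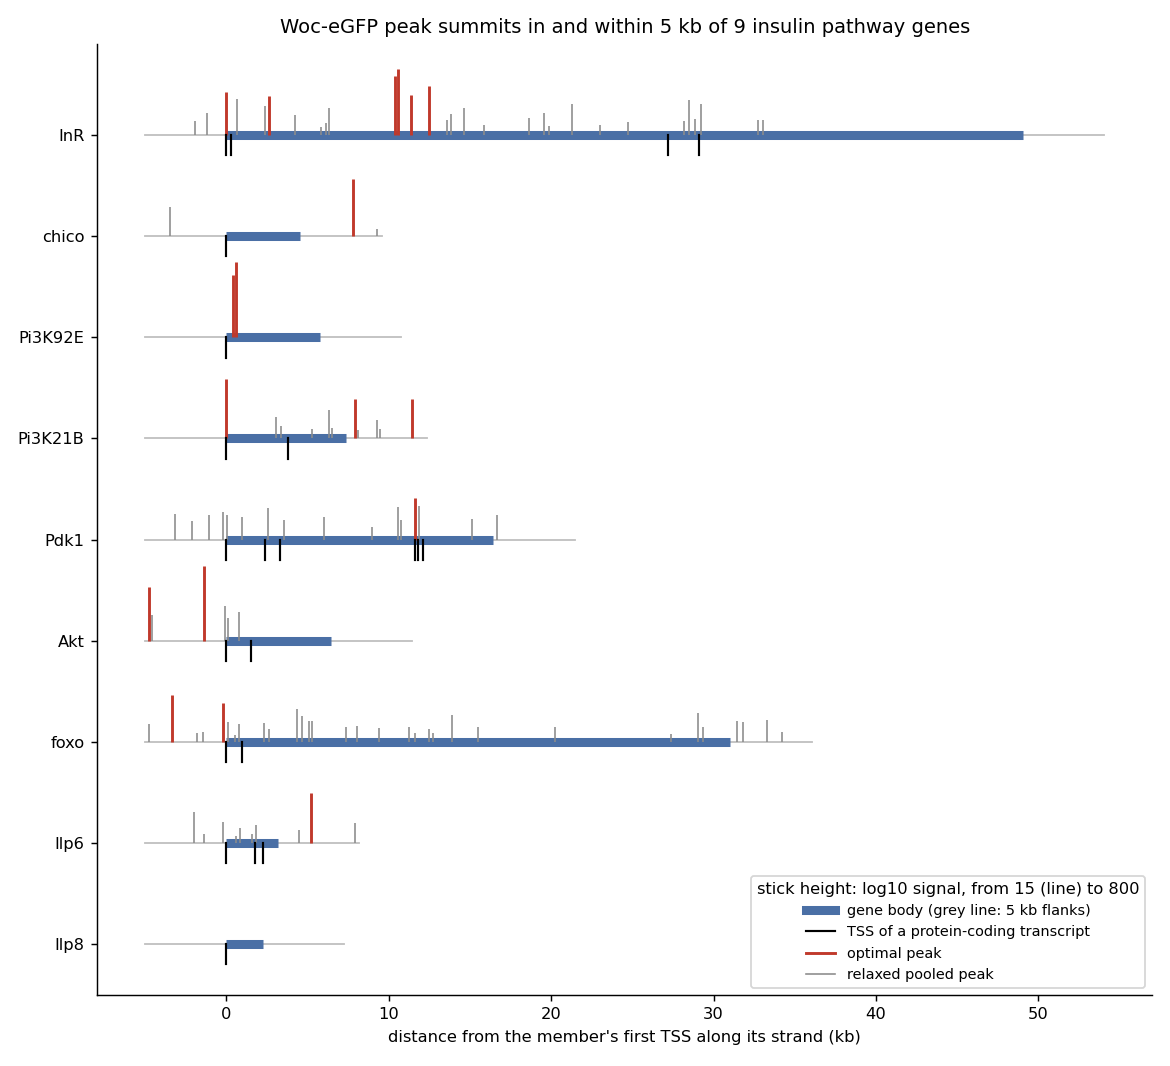
Woc-eGFP peak summits along the 9 genes, drawn along each gene's own strand in kb from its first TSS. Red sticks are the 18 optimal summits, grey sticks the 91 relaxed ones, stick height is log10 signal, blue bars are gene bodies, grey lines the 5 kb flanks and black ticks the TSSs. Optimal summits cluster at the start of Pi3K92E and in the first part of InR, stand apart from the body of chico, and are missing from Ilp8.

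The map of summits along the genes shows where the peaks sat. Of the 18 optimal summits, 8 lay inside a member's body, 6 upstream of it and 4 downstream. The 8 inside were 5 in introns, all of InR, and 3 in 5′ UTR exons, 2 of Pi3K92E and 1 of Pdk1, with 0 in coding exons. Of the 18, 5 were within 500 bp of an own TSS. A further 3 were within 500 bp of the TSS of another coding gene, and 6 were nearer to another coding gene's TSS than to any of the member's own. Matching shares over all optimal summits were not counted, so these positions describe the members alone.

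Signal below is the value that the authors' peak caller gave each peak, and its scaling is not stated, so it ranks peaks within 1 list only. On the arms, optimal peaks had a median signal of 183 (quartiles 131 and 298, highest 2866). The 18 peaks of the members had a median of 199 (quartiles 124 and 335, highest 762). The authors' −log10 q was at its ceiling of 3.94 in 11 of the 18 and in 4364 of the 6614 peaks on the arms.

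Among the ligands, Ilp8 stood at 0 peaks. Ilp8 (FBgn0036690, chr3L:17029812-17032080, minus strand) encodes a relaxin-like peptide that imaginal discs release when they grow abnormally or are damaged, which delays pupariation; it acts through the receptor Lgr3 rather than InR. Its locus held no peak in the pooled list or in either library's own list, and the nearest pooled summit was 15970 bp from its TSS, an optimal peak with a signal of 383. A locus without any pooled summit was common, since 27.7% of protein-coding genes had none.

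Ilp6 (FBgn0044047, chrX:2331493-2334658, minus strand), a growth factor made mainly in the fat body around the time that larvae stop feeding, had 1 optimal and 9 relaxed summits. The gene lies within Raf, which encodes the kinase of the Ras pathway and runs on the opposite strand. The optimal peak had a signal of 205 in the pooled list, 70.9 in replicate 1 and 133 in replicate 3. Its summit was 2048 bp past the 3′ end of Ilp6, in an intron of Raf, and the nearest annotated start was that of the noncoding gene lncRNA:CR33218 at 714 bp. At the Ilp6 TSSs themselves all pooled signals were low, and the highest was a relaxed 44.2. So the only optimal summit of a ligand among the members was not at that ligand's promoter.

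The other insulin-like peptide genes were looked at for comparison. Of the 8 Ilp genes of the list, 6 had no pooled summit in the locus, and Ilp6 and Ilp7 were the 2 with an optimal one. Ilp1 to Ilp5 lie within 25.5 kb of each other on 3L, so several of their loci share sequence, and the nearest pooled summits were 15024 to 35390 bp from their TSSs. Ilp5 and Ilp8 were the only ones with no peak in the list of either library.

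InR (FBgn0283499, chr3R:21570248-21619321, minus strand), the receptor, had the most optimal summits of the 9 genes, 6, and 24 relaxed ones. It is also the longest at 49.1 kb, and its locus held 1.02 optimal summits per 10 kb, a density that 25.5% of all genes reached or passed. The peak at its first TSS, with the summit 33 bp upstream, had a signal of 144, which is percentile 20.2 of the 3058 bound promoters. Replicate 1 gave it 31.8 and replicate 3 gave it 112. The highest InR peak was not there but deep in an intron, 10307 bp downstream of the nearest own TSS. That intronic peak had a signal of 483, rank 693 of 29999 pooled peaks, and was 175 in replicate 1 and 312 in replicate 3. Its interval held a further summit 208 bp away with a signal of 336. Both libraries placed this pair above every other peak in InR.

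The remaining InR summits were weaker and also intronic. Summits with signals of 193 and 122 lay 12197 and 11089 bp downstream of the nearest own TSS, close to the 483 and 336 summits. A summit with a signal of 115 lay 2317 bp downstream. It was one of 2 among the 18 with a higher raw signal in replicate 1 (62.8) than in replicate 3 (44.7). The 122 peak had 26.5 in replicate 1 and 105 in replicate 3, the highest ratio of replicate 3 to replicate 1 (3.94) of the 18, and the 115 peak had the lowest (0.713). An annotated insertion of the transposable element FB begins 127 bp from the 336 summit and 335 bp from the 483 summit, and no InR summit lay inside it. The insertion spans 21609064 to 21611635, and the interval that holds both summits reaches into it, ending at 21609107. The InR TSS 285 bp along from the first shared the peak of 144 and had a relaxed summit of 99.2 as well. Of the TSSs further along, the one 27200 bp from the first had no pooled peak within 500 bp, and the one 29130 bp from the first had relaxed peaks only, the higher at 75.6. The nearest TSS of another coding gene was that of E2f1, a cell cycle transcription factor, 13339 bp or more from each of the 6 summits.

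chico (FBgn0024248, chr2L:10242512-10247078, minus strand), the adaptor that couples InR to PI3K, had 1 optimal summit, and it stood at a neighbour. Its signal was 306 in the pooled list, 127 in replicate 1 and 183 in replicate 3. The summit was 3249 bp past the 3′ end of chico, 7815 bp from the chico TSS and 78 bp from the TSS of me31B, which encodes an RNA helicase of translational repression. A relaxed summit of 69.7, 3485 bp upstream of chico, was likewise 62 bp from the TSS of bsk, the Jun kinase gene. No pooled summit lay within 500 bp of the chico TSS. By position, chico had no peak of its own, although its locus counted among the 8 of 9.

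The PI3K genes carried the strongest promoter peaks. Pi3K92E (FBgn0015279, chr3R:20628972-20634732, minus strand) encodes the catalytic subunit, which phosphorylates membrane lipids. It had 2 optimal summits 199 bp apart and no relaxed ones, and was the only locus of the 9 with optimal summits alone. The higher, at 762, stood at percentile 99.3 of the pooled list and lay 603 bp downstream of the TSS in the 5′ UTR exon. The lower, at 401, lay 404 bp downstream in the same kind of exon, and it is the one that counts as the promoter peak, at percentile 76.4 of bound promoters. The highest overlapping peak, shared by both summits, was 190 in replicate 1 and 557 in replicate 3. The replicate 3 summit nearest to the lower one had 171. In replicate 1 the same summit was nearest to both, 109 bp from the higher and 90 bp from the lower. Both libraries thus had a high peak there, by rank 446 in replicate 1 and 185 in replicate 3. Few bound promoters had their summit so far downstream. Among 1717 bound genes with only 1 TSS, the median position of the highest promoter summit was 133 bp upstream of the TSS (−133 bp). Just 5.53% were downstream of the TSS, and 19 genes (1.11%), Pi3K92E included, had it at or beyond 404 bp downstream, in a window that ended at 500 bp.

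Pi3K21B (FBgn0020622, chr2L:297880-305233, plus strand), the adaptor subunit that holds the PI3K enzyme at the receptor, was bound almost exactly at its start. The summit was 6 bp upstream of the first TSS, with a signal of 332 in the pooled list, 119 in replicate 1 and 219 in replicate 3. It stood at percentile 68.1 of bound promoters. The other optimal summits of the locus were both downstream of the gene and much lower. One, at 118, was 115 bp from the TSS of Plc21C, a phospholipase C gene, and the other, at 117, was 20 bp from the start of lncRNA:CR43719 within an intron of Plc21C. The libraries gave 54.3 and 62.7 to the first of these, and 23.9 and 85.6 to the second.

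**Figure D2:**
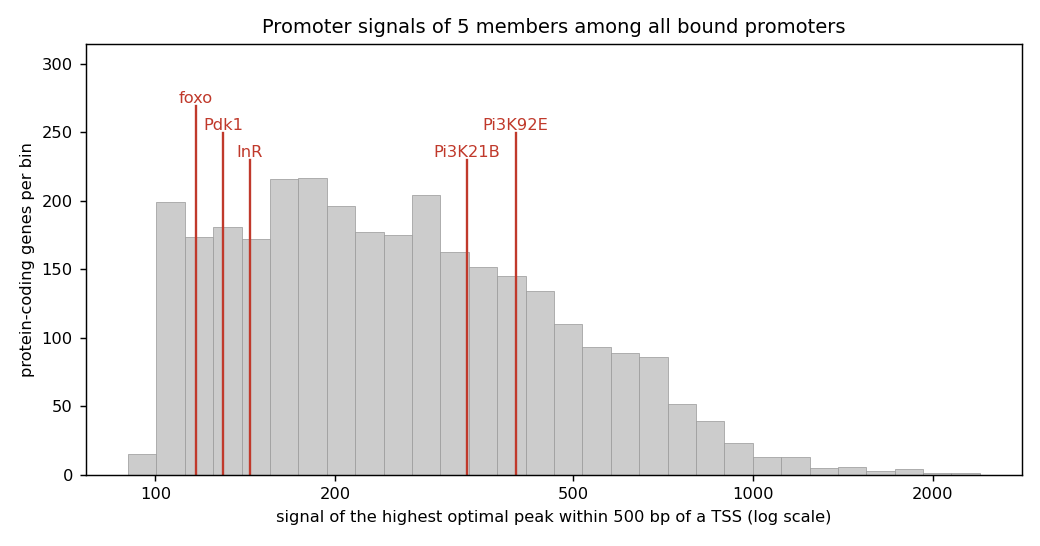
Signals of the 5 members with a bound promoter (red lines) among the 3058 protein-coding genes with one (grey bars, genes per bin), on a log scale of the signal of the highest optimal peak within 500 bp of a TSS. Pi3K92E (401) and Pi3K21B (332) stand above the median of 238, and InR (144), Pdk1 (130) and foxo (117) stand below the lower quartile of 157.

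The distribution of promoter signals shows that the 5 bound members split into a higher pair and a lower trio. The pair was the 2 subunits of PI3K, and the trio was InR, Pdk1 and foxo. With 1 value per gene, this split is a description.

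Pdk1 (FBgn0020386, chr3L:129450-145895, plus strand), the kinase that phosphorylates Akt, had 1 optimal and 15 relaxed summits. The optimal summit lay 28 bp downstream of the fourth of its 6 TSSs, 11616 bp from the first, in a 5′ UTR exon. Its signal was 130 (percentile 14.6 of bound promoters), with 71.0 in replicate 1 and 55.5 in replicate 3. It was the other of the 2 peaks with a higher raw signal in replicate 1. The TSSs upstream carried relaxed peaks only, with highest signals of 62.2 at the first, 78.5 at the one 2362 bp along and 42.0 at the one 3283 bp along. Pdk1 therefore counted as bound through its internal start sites and not through its first.

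Akt (FBgn0010379, chr3R:16099228-16105670, plus strand), the central kinase of the pathway, missed the definition of a bound promoter by a small margin. A relaxed summit 83 bp upstream of its TSS had a signal of 95.2, just under the lowest optimal signal of 99.6, with 44.6 in replicate 1 and 53.0 in replicate 3. The strongest peak of the locus was far higher. It had a signal of 744, rank 225 in the pooled list, with 171 in replicate 1 and 580 in replicate 3. That summit was 1382 bp upstream of Akt, in an intron of the neighbouring gene Mhcl, which encodes a myosin heavy chain-like protein, and 915 bp from the nearest TSS of Mhcl. A further optimal summit of 252, at 83.6 in replicate 1 and 171 in replicate 3, was 296 bp from an Mhcl TSS and 4782 bp upstream of Akt. By distance, both summits were nearer to Mhcl than to Akt.

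foxo (FBgn0038197, chr3R:14056945-14087978, plus strand), the transcription factor that Akt holds back, had 2 optimal summits, both upstream of its first TSS. The promoter peak, 195 bp upstream, had a signal of 117 and the lowest percentile of the bound members (9.32). It was 35.6 in replicate 1 and 80.7 in replicate 3. The higher peak, at 174, was 3349 bp upstream, with 39.2 in replicate 1 and 131 in replicate 3, and the nearest TSS of another coding gene was 17198 bp from it. Relaxed summits were many along foxo, 29 with signals from 21.5 to 85.3.

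Counting relaxed and optimal summits together, the loci differed in another order than by signal. Ilp6 had 7.60 summits per 10 kb and foxo 7.55, densities that 3.24% and 3.31% of all protein-coding genes reached or passed. Pi3K21B had 6.34, Pdk1 6.05, InR 5.08 and Akt 3.65. The median over all genes was 1.73 and the upper quartile 3.76. chico had 2.06 and Pi3K92E 1.27, so the gene with the highest signal was below the median in summits per 10 kb. Most of these summits were relaxed peaks, which the authors deposited as peaks and background together.

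**Figure D3:**
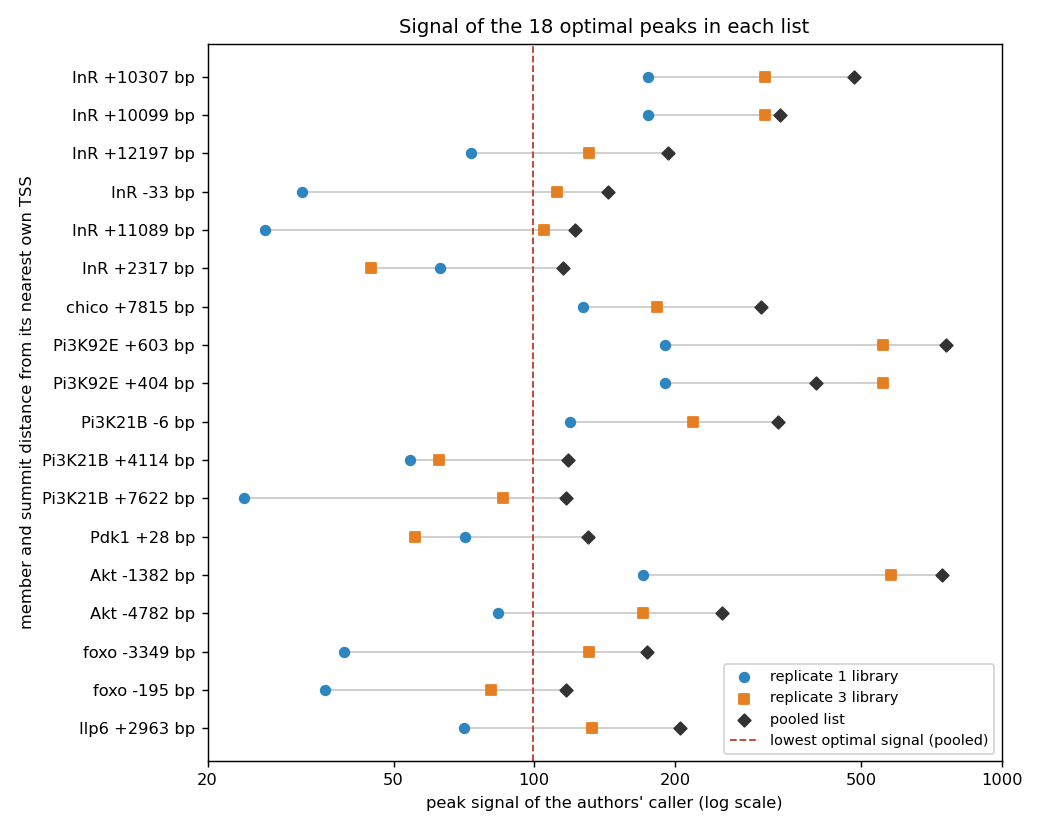
Signal of the 18 optimal peaks on a log scale by list, with circles for replicate 1, squares for replicate 3 and diamonds for the pooled list, each row named by the member and the distance of its summit from the nearest own TSS in bp. Replicate 3 has the higher raw signal in 16 of 18 rows, and InR +2317 bp and Pdk1 +28 bp are the exceptions. The dashed line marks the lowest optimal signal of 99.6, which applies to the pooled list.

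The plot of signals by library shows a shared shift. The value of replicate 3 over that of replicate 1 had a median of 1.96 over the 18 peaks (range 0.713 to 3.94), and a median of 2.07 over the 6474 optimal peaks on the arms found in both lists (quartiles 1.54 and 2.85), with replicate 3 higher in 94.0% of them. The shift was therefore common to the lists as a whole, and a higher raw signal in replicate 3 need not be a higher rank there. To compare by rank, each library's 6636 highest peaks were taken, as many as the optimal list held. Of the 18 member peaks, 10 overlapped a peak of both such lists, 3 of replicate 1 alone, 5 of replicate 3 alone and 0 of neither. Without the same counts over all optimal peaks, whether this division is particular to the members is not known. The peak at the Pi3K21B promoter ranked 1248 in replicate 1 and 1524 in replicate 3. At Pi3K92E the ranks given above belong to a library peak that both of its summits share, and are not those of the promoter summit alone. The highest overlapping peaks at the InR, Pdk1 and foxo promoters ranked 8617, 3002 and 7521 in replicate 1, and 3910, 8077 and 5615 in replicate 3. For each of these 3 promoter peaks, the overlapping peak was outside the 6636 highest of 1 library and inside those of the other. The InR promoter still counted as bound with the highest peaks of either library alone, in replicate 1 through a different peak.

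The wider pathway was described with a list of 32 other genes ordered by role. Of these, 12 had a bound promoter (37.5%, against 21.9% of all protein-coding genes) and 21 an optimal summit in the locus (65.6%, against 48.8%). With the 9 members, 17 of 41 promoters were bound (41.5%). The counts by role below stand against the same 21.9%. Of the ligands 0 of 6 were bound. Among binding proteins and receptors 1 of 3 was bound, Sdr (222), a secreted decoy of the insulin receptor. Among adaptors and phosphatases at the receptor 2 of 4 were bound, Ptp61F (163), a tyrosine phosphatase, and step (173), a cytohesin. Of the partners of Akt 3 of 5 were bound: melt (818), a membrane-associated protein that modulates insulin signalling, wdb (254), a regulatory subunit of protein phosphatase 2A, and Sin1 (178), a subunit of TOR complex 2.

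Further down, 3 of 6 substrates and branches of Akt were bound. They were sgg (1184), the fly GSK3 kinase, 14-3-3zeta (295) and 14-3-3epsilon (102), adaptors that hold phosphorylated proteins. Of the TOR arm 2 of 5 were bound, Rheb (324), the GTPase that activates TOR, and Thor (156), the translational repressor 4E-BP and a known target of foxo. The highest promoter signals of the whole list, those of sgg and melt, were above that of any member. Of the 20 genes with no bound promoter, 5 had a relaxed peak within 500 bp of a TSS. Their signals were 48.3 at ImpL2, a secreted protein that binds insulin-like peptides, 39.9 at the adaptor gene Lnk, 56.5 at Pi3K59F and 98.8 at trbl, the fly tribbles, which binds Akt, and lowest at PRAS40, an inhibitor of TOR. The other 15 had no pooled peak there.

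**Figure D4:**
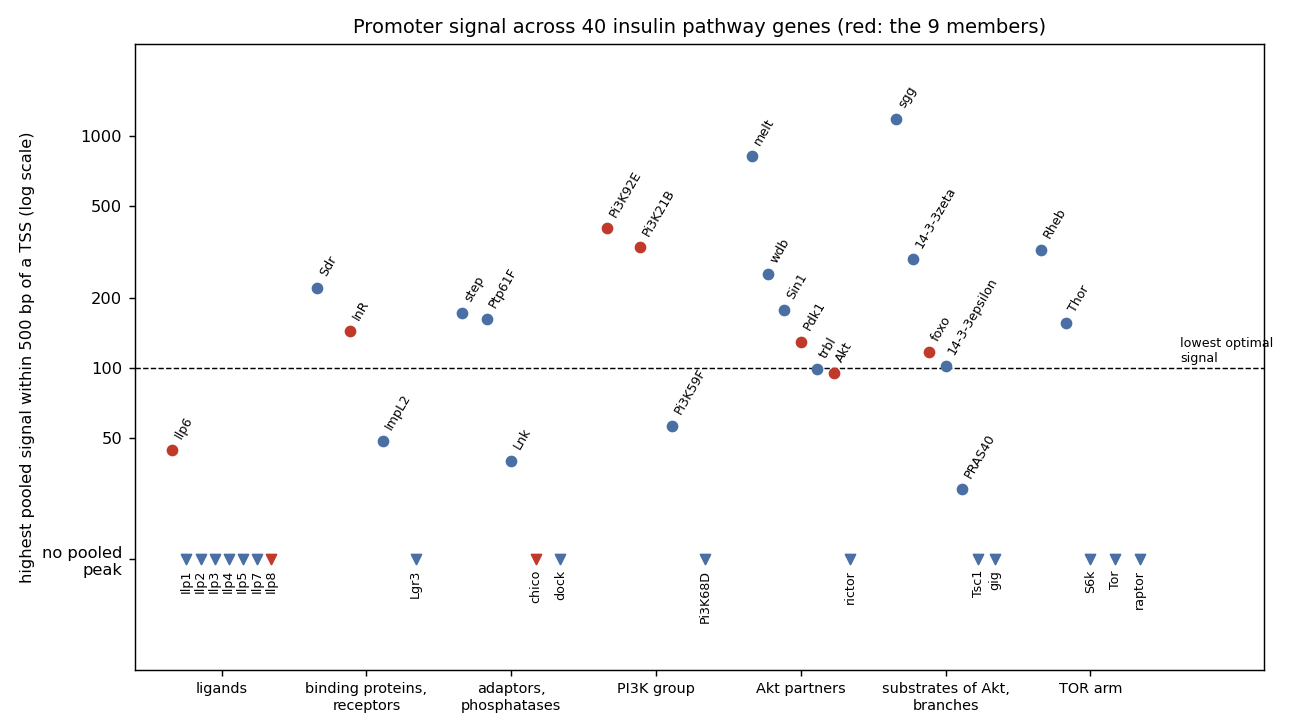
Highest pooled signal within 500 bp of a TSS, on a log scale, for the 9 members (red) and 31 other listed genes (blue), in columns by role. Triangles mark genes with no pooled peak there, and the dashed line the lowest optimal signal of 99.6. In the ligand column Ilp6 alone has a peak, at 44.2, whereas sgg reaches 1184 and melt 818.

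The plot of promoter signals by role shows the ligand column nearly empty and bound genes in each of the other columns. No test was made of this difference, and the roles drawn hold 2 to 6 genes each beside the members.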

How the data were processed

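Processed peak lists of woc-eGFP ChIP-seq from 2 whole-larva libraries on build dm6 were used. The authors called peaks in each library and in the pooled alignments against 1 control alignment and then applied an IDR threshold, per the text deposited with the libraries. The deposited signal and −log10 q values are the authors' own; no scaling is stated. The sources used here do not give the caller, the aligner or the IDR threshold, and read depth is unknown. The pooled list held 29999 peaks and the optimal list 6636, of which 6614 were on arms 2L, 2R, 3L, 3R, 4 and X.

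Summits were placed on the Ensembl release 115 annotation (BDGP 6.54) with Python 3.11.15 and pandas 2.3.3. Coordinates are 1-based. A library's value for a peak is that library's highest-signal peak overlapping it by 1 bp or more, so adjacent summits can share 1 value. Percentiles are ranks within 1 list. The counting of summits in windows was checked against a direct search on simulated positions. The placement of the deposited peaks on genes was not tested in this way. The dm3 lists were not used here, because coordinates were not converted. The members, the other pathway genes (Tor was matched as mTor through a synonym) and the motifs were chosen with earlier results of these data known. All members and the bound genes of the list were named, except 1 listed gene that is counted but not reported here. Other distances, peak lists, TSS choices and window widths were tried as alternatives.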

Additional observations from a re-analysis of the deposited data

How the results depend on the processing

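No paired analysis was possible because the 2 libraries form 1 group. The 8 of 9 members with an optimal summit in the locus, against 48.8% of all genes, depended on the flank, as did the share of all genes: 3 with the gene body only (8 summits in place of 18; 12.9% of all genes), 5 with 1 kb (30.9%), 6 with 2 kb (35.9%) and 8 with 10 kb (62.5%). Counting a summit only for the gene of its nearest coding TSS left 5 members and 23.9% of all genes. With the 3318 strongest optimal peaks, the loci held 10 summits, and 2 members were bound at a promoter (Pi3K92E and Pi3K21B) in place of 5, with 14.3% of all genes in place of 21.9%. Of the other listed genes, 7 were then bound in place of 12. All pooled peaks gave 109 summits.

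Using the highest peaks of 1 library only, members with a locus summit ranged from 7 (50.6% of all genes) to 8 (48.5%), summits from 16 to 24, bound members from 4 (21.8%) to 5 (23.6%) and other bound genes from 11 to 15. Pdk1 was lost without replicate 1. Without replicate 3, foxo was lost and Akt gained. Using the 5′-most TSS of each gene only, 4 members were bound (19.8% of all genes), and Pdk1 was lost. A promoter window of 250 bp left 4 members bound (18.1% of all genes). Pi3K92E was lost there, its nearest summit being 404 bp from the TSS. Windows of 50 bases to each side lowered the share with TATAAA from 44.4% to 11.1% in the members and from 32.8% to 17.6% over all optimal summits. Depth is unknown, so a locus with no listed peak, as at Ilp8, does not show absence of binding.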
